A study of Mus musculus with 6 samples.

Results

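The genes described here set how cells leave the first gap phase (G1) of the cell cycle and begin to copy their DNA. They are the D cyclins Ccnd1, Ccnd2 and Ccnd3, the E cyclins Ccne1 and Ccne2, the cyclin-dependent kinases (CDKs) Cdk4 and Cdk6, and the CDK inhibitors Cdkn1a, Cdkn1b and Cdkn2c. They were taken as every probe set that the array platform's annotation assigns to one of these 10 genes alone, which gave 27 probe sets of the 45037 that are not controls. All 27 passed the filter on dim probe sets, and each gene was tested from its brightest probe set, among 11260 genes tested in all.

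The data came from 6 arrays of mouse megakaryocytes, the platelet-forming cells, grown from fetal liver cells with thrombopoietin and enriched on an albumin gradient, in a mixed C57BL/6xSv129 background. The 3 FOG1 ki/ki arrays came from cultures labelled FOG1-/- ki/ki. The 3 control arrays came from FOG1+/- cultures (replicates 1 and 2) and a FOG1+/+ culture (replicate 3). FOG1 is a cofactor of GATA transcription factors, and the labels do not describe the knocked-in change. The comparison asks how transcript levels differ between the cultures labelled FOG1-/- ki/ki and the controls.

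D cyclins join CDK4 or CDK6 and begin to phosphorylate the retinoblastoma protein, which frees E2F factors. E cyclins then join CDK2 and carry the cell into DNA replication. Cdkn2c encodes p18, an INK4 inhibitor that binds CDK4 and CDK6, while Cdkn1a encodes p21 and Cdkn1b encodes p27, inhibitors that bind whole cyclin-CDK complexes. Megakaryocytes keep copying their DNA without dividing and become polyploid. In mice, cyclin D3 is abundant in megakaryocytes and both E cyclins together are needed for their full ploidy, and GATA1 has been placed upstream of Ccnd1 in these cells.

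Zfpm1, the gene of FOG1, had signals of 480.0, 868 and 1274 in FOG1 ki/ki replicates 1 to 3, against 429.7, 862 and 1137 in control replicates 1 to 3. A knocked-in allele can still make transcript, so the genotypes are not checked by these levels. The labelled cell type had its markers: all 11 megakaryocyte markers measured were tested, and their summed signal was 19561 to 25734 in FOG1 ki/ki and 22356 to 28601 in control. All 11 lay below control, with a median log2 difference of -0.21 and 0 past the test. The differences ran from -1.35 for Gp6 to -0.0028 for Pf4, with Tubb1 at -1.01. Gp6, Tubb1, Gp9 and Selp read lower on every FOG1 ki/ki array than on every control array, where 4.93% of all genes did. These genes were named after their values were seen. Median signals were 12.3, 11.1 and 5.93 in FOG1 ki/ki replicates 1 to 3, against 10.3, 12.2 and 7.75 in control replicates 1 to 3. The replicate 3 array was the lowest in each group. Same-numbered arrays of both groups varied together, so differences within each replicate number, called pairs here, are given as well. Pairs 1 and 2 set FOG1 ki/ki against FOG1+/-, and pair 3 sets it against FOG1+/+. What is particular to replicate 3 therefore cannot be told apart from the control genotype.

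None of the 10 genes passed limma's test at an adjusted p under 0.05, where 0.151% of all genes tested did. With the replicate number as a block, again 0 of 10 passed, against 0.835% of all genes. In the fit over all 45037 probe sets 0 of the 27 member probe sets passed, against 0.00222% of all. With the block 0 of all 45037 probe sets passed, so a count of 0 members there says nothing particular about them. Of the 10 genes, 7 lay above control and 3 below, a count near the 55.1% of all genes that lay above control. Their median log2 difference was 0.29, and that of all genes was 0.033. With control replicate 3, the FOG1+/+ array, left out, the median became 0.18, and leaving out control replicate 2 gave 0.19. The genes above control were Ccnd1, Ccnd2, Ccne1, Ccne2, Cdk4, Cdk6 and Cdkn2c, and those below were Ccnd3, Cdkn1a and Cdkn1b. Differences are on the scale of log2(signal + 16), FOG1 ki/ki minus control, and a bulk array cannot tell fewer cells of a type from less RNA per cell.

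The number of genes whose 3 pairs all pointed upward was 4 of 10 (Ccnd1, Ccnd2, Ccne1 and Cdkn2c), where 24.8% of all genes did so. No gene had all 3 pairs downward, where 19.3% of all genes did. The groups did not separate for any of the 10 genes, where 6.32% of all genes had every FOG1 ki/ki array above every control array and 4.93% had the reverse. At an unadjusted p under 0.05 there were 0 of the 10 genes, against 6.69% of all, and with the block 3 (Ccnd1, Ccnd2 and Cdkn2c), against 18.4% of all.

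**Figure D1:**
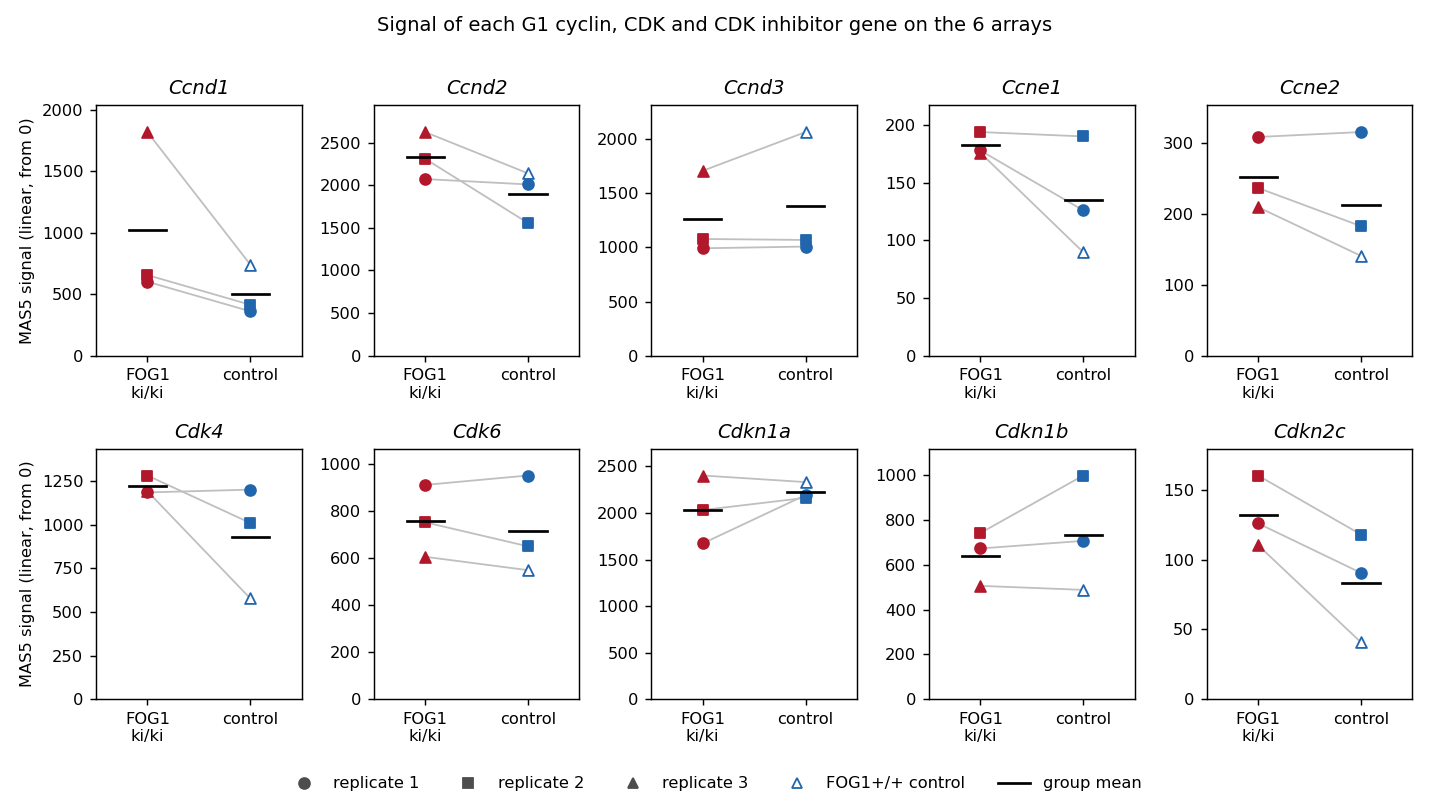
MAS5 signal (linear axes from 0) of each gene's brightest probe set on the 3 FOG1 ki/ki arrays (red, left) and the 3 control arrays (blue, right); grey lines join equal replicate numbers, the open triangle is the FOG1+/+ control and black bars are group means. Ccnd1 lies higher in FOG1 ki/ki along all 3 lines, yet the control triangle (741) stands above FOG1 ki/ki replicates 1 (602) and 2 (656).

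Ccnd1, which encodes cyclin D1, showed the largest difference of the 10 genes with all 6 arrays in the fit. Its signals were 602, 656 and 1820.1 in FOG1 ki/ki replicates 1 to 3, against 361, 414 and 741 in control replicates 1 to 3. Both replicate 3 arrays stood well above the others of their group, and the groups overlapped, while each FOG1 ki/ki array exceeded its same-numbered control. The mean was 1026 ± 688 in FOG1 ki/ki and 505 ± 205 in control (SD, n = 3 each), a ratio of 2.03. The log2 difference was 0.88 (SE 0.45, 95% interval -0.17 to 1.93, limma adjusted p = 0.870).

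Within pairs, Ccnd1 differed by 0.71, 0.64 and 1.28. With the replicate block the 95% interval was 0.50 to 1.26 and the limma adjusted p was 0.0691, which also missed the threshold. Leaving out FOG1 ki/ki replicate 3 gave 0.37, and leaving out the FOG1+/+ control, replicate 3, gave 1.18. The rank rested on single arrays: Cdkn2c lay above Ccnd1 without FOG1 ki/ki replicate 3 (0.76), without control replicate 1 (0.75 against 0.68) and without control replicate 2 (0.92 against 0.77), and in the first case Ccne1 (0.47), Cdk4 (0.46) and Ccne2 (0.39) did too. The 2 dimmer Ccnd1 probe sets pointed the same way. One read 186, 94.7 and 373 in FOG1 ki/ki and 102, 88.7 and 181 in control, a log2 difference of 0.61. The other read 60.6, 41.1 and 118 in FOG1 ki/ki and 37.2, 29.3 and 48.9 in control, a log2 difference of 0.64. Both were again highest on the replicate 3 array of each group.

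Ccnd2, encoding cyclin D2, a D cyclin of many blood cells, read 2073, 2312 and 2625 in FOG1 ki/ki and 2010.0, 1557 and 2140.1 in control. FOG1 ki/ki replicates 2 and 3 exceeded every control array and replicate 1 did not. Its log2 difference was 0.30 (SE 0.16, 95% interval -0.061 to 0.66, limma adjusted p = 0.875), and pairs differed by 0.044, 0.57 and 0.29. Pair 2 held the largest difference in all 7 Ccnd2 probe sets, and control replicate 2 read lowest of the controls in each. Without that array the difference of the brightest one was 0.16. The 7 estimates ranged from 0.30 to 0.61. In 1 of the 7 the groups separated upward, where 6.32% of all genes did by their brightest probe set. It read 1003, 1014 and 1240.1 in FOG1 ki/ki and 914, 584 and 933 in control. This probe set is of the class marked _x_at, whose probes can also match other transcripts.

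Ccnd3, encoding cyclin D3, was close to control. It read 992, 1078 and 1708 in FOG1 ki/ki and 1008, 1069 and 2066 in control, and the replicate 3 arrays were again the high ones. The log2 difference was -0.094 (95% interval -0.83 to 0.64, limma adjusted p = 0.999), with pair differences of -0.023, 0.012 and -0.27. It turned to 0.055 without FOG1 ki/ki replicate 1 and to 0.23 without control replicate 3. A dim Ccnd3 probe set read 9.50, 6.70 and 8.05 in FOG1 ki/ki and 12.4, 58.0 and 21.0 in control. Every FOG1 ki/ki value lay under the filter level of about 10.3, so this probe set passed the filter only through its control values. Its groups separated downward near background, where 4.93% of all genes did by their brightest probe set. No difference is read from this separation. Another Ccnd3 probe set, also near background, differed by -0.21 with overlapping groups.

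**Figure D2:**
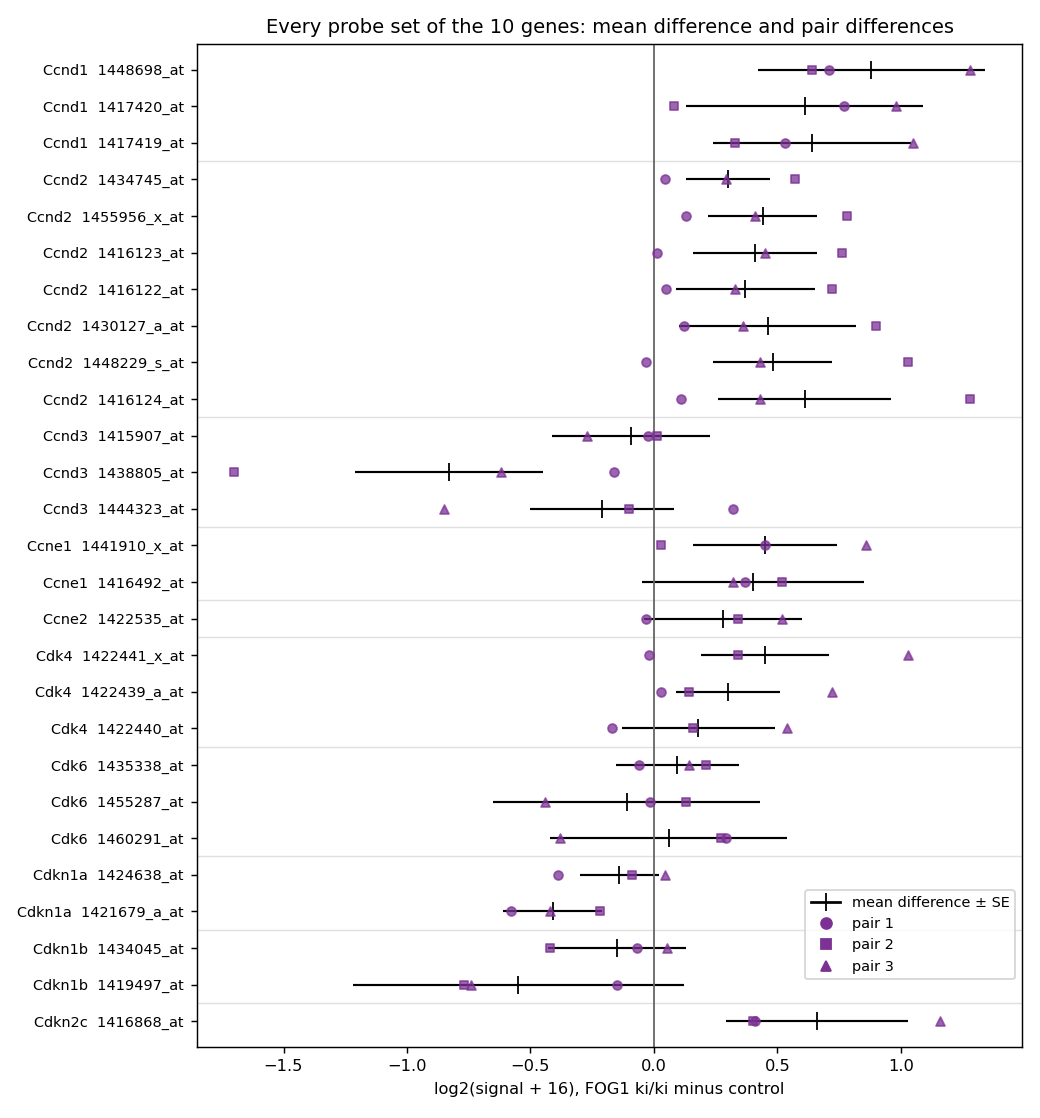
Difference in log2(signal + 16), FOG1 ki/ki minus control, for each of the 27 probe sets, with the mean difference ± SE (black) and the differences of pairs 1, 2 and 3 (purple circle, square and triangle). All 3 Ccnd1 and all 7 Ccnd2 means lie right of 0, and all 3 Ccnd3, both Cdkn1a and both Cdkn1b means lie left of it.

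Ccne1, encoding cyclin E1, read 178, 194 and 176 in FOG1 ki/ki and 126, 190.2 and 89.7 in control. The FOG1 ki/ki arrays were close together, and control replicate 2 lay among them. Ccne1 differed by 0.45 on the log2 scale (SE 0.31, limma adjusted p = 0.946), by 0.22 without control replicate 3 and by 0.70 without control replicate 2. A second Ccne1 probe set read 168, 208 and 74.7 in FOG1 ki/ki and 126, 140.5 and 56.9 in control, a log2 difference of 0.40. It was low on both replicate 3 arrays, which the brighter probe set showed only in control. The brighter one is of the class marked _x_at, whose probes can also match other transcripts.

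Ccne2, encoding cyclin E2, had 1 probe set, which read 309, 237 and 209.9 in FOG1 ki/ki and 316, 183 and 141 in control. The groups overlapped through the replicate 1 arrays, which were nearly equal. Its log2 difference was 0.28 (SE 0.33, limma adjusted p = 0.999). Dropping control replicate 3 gave 0.041, dropping FOG1 ki/ki replicate 1 gave 0.13, and dropping control replicate 1 gave 0.58.

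Cdk4, the kinase partner of D cyclins, read 1185, 1282 and 1192 in FOG1 ki/ki and 1201, 1009.9 and 577 in control. The 3 FOG1 ki/ki arrays and control replicate 1 were alike, and the FOG1+/+ control read lowest. The log2 difference was 0.45 (SE 0.26, 95% interval -0.16 to 1.05, limma adjusted p = 0.919), with -0.02, 0.34 and 1.03 in the pairs. Without control replicate 3 it was 0.14. The other 2 Cdk4 probe sets differed by 0.30 and 0.18, and control replicate 3 was the lowest array in both. The brightest is again of the _x_at class.

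Cdk6, the other kinase partner of D cyclins, was close to control, with 912, 753 and 606 in FOG1 ki/ki and 952, 650.4 and 549 in control. In both groups the array numbered 1 read highest and the array numbered 3 lowest. The log2 difference was 0.095 (95% interval -0.49 to 0.68, limma adjusted p = 0.999), and it turned to -0.047 with FOG1 ki/ki replicate 1 left out and to -0.074 with control replicate 3 left out. Its other probe sets differed by -0.11 and 0.059.

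Of the kinases, Cdk4 is known as a target of Myc through E boxes, the sequence CACGTG, and Myc is among the pathway genes below. The 250 bases before the Cdk4 start (RefSeq, GRCm38.p6, chr10:127063285-127063534, + strand) are shown for this reason, with each CACGTG in capitals.
Cdk4: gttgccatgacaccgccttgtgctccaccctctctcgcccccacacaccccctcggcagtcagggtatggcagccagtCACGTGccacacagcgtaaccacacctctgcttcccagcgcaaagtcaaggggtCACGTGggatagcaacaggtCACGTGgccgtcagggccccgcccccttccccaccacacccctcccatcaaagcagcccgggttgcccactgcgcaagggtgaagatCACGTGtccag
This window held 4 matches, starting at -172, -118, -98 and -11. Of 32851 such windows in the RefSeq table, 6.02% held at least 1, and of the 10 windows of 7 member genes, those of Cdk4 and Cdk6 did. A match is a description of letters and no measure of binding.

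Among the CDK inhibitors of the 10 genes, Cdkn2c was the one that lay above control. It read 126, 160.3 and 110.4 in FOG1 ki/ki and 90.5, 118 and 40.7 in control. FOG1 ki/ki exceeded control in all 3 pairs, by 0.41, 0.40 and 1.16, while FOG1 ki/ki replicate 3 lay below control replicate 2. On average the log2 difference was 0.66 (SE 0.37, 95% interval -0.21 to 1.52, limma adjusted p = 0.912). With the block the limma adjusted p was 0.222. Without control replicate 3 the difference was 0.30. Only 1 probe set measured this gene.

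Cdkn1a read 1673, 2032 and 2403 in FOG1 ki/ki and 2193, 2163 and 2332 in control. FOG1 ki/ki replicates 1 and 2 lay below all controls and replicate 3 above them. The log2 difference was -0.14 (SE 0.15, 95% interval -0.48 to 0.20, limma adjusted p = 0.997), and it was -0.011 with FOG1 ki/ki replicate 1 left out and -0.27 with FOG1 ki/ki replicate 3 left out. A second Cdkn1a probe set read 568, 633 and 789 in FOG1 ki/ki and 855, 742 and 1059 in control. It was lower in all 3 pairs, by a mean of -0.41 on the log2 scale, with groups that overlapped at FOG1 ki/ki replicate 3 and control replicate 2 (limma adjusted p = 0.380 with the block, over all probe sets).

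Cdkn1b read 673, 742 and 506 in FOG1 ki/ki and 707, 999 and 488 in control. Control replicate 2 was the array that stood out, and without it the log2 difference was 0.10 in place of -0.15 (SE 0.28, limma adjusted p = 0.999). It was 0.0097 without FOG1 ki/ki replicate 3. A dimmer Cdkn1b probe set was lower in all 3 pairs, with 184, 74.9 and 23.7 in FOG1 ki/ki and 205, 139 and 50.5 in control.

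Cdkn1a is a target of p53. The 250 bases before its first listed start (RefSeq, GRCm38.p6, chr17:29090729-29090978, + strand) are shown because they hold 2 copies of CATG with 6 bases between them, the spacing of the p53 element. Capitals mark the match and 3 bases on each side.
Cdkn1a: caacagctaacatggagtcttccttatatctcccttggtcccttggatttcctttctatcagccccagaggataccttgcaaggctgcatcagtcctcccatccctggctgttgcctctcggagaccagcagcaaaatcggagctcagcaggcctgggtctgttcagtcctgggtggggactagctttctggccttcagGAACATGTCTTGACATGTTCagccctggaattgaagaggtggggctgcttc
The match starts at -48, and 0.490% of the 32851 windows hold one. No other member window did. GATA motifs, searched on both strands as GATA with A or T before it and A or G after it, were found in 26.5% of all windows and in 1 of the 10 member windows, the same one of Cdkn1a. Ccnd1, Ccnd2 and Ccne2 had no window in the table.

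**Figure D3:**
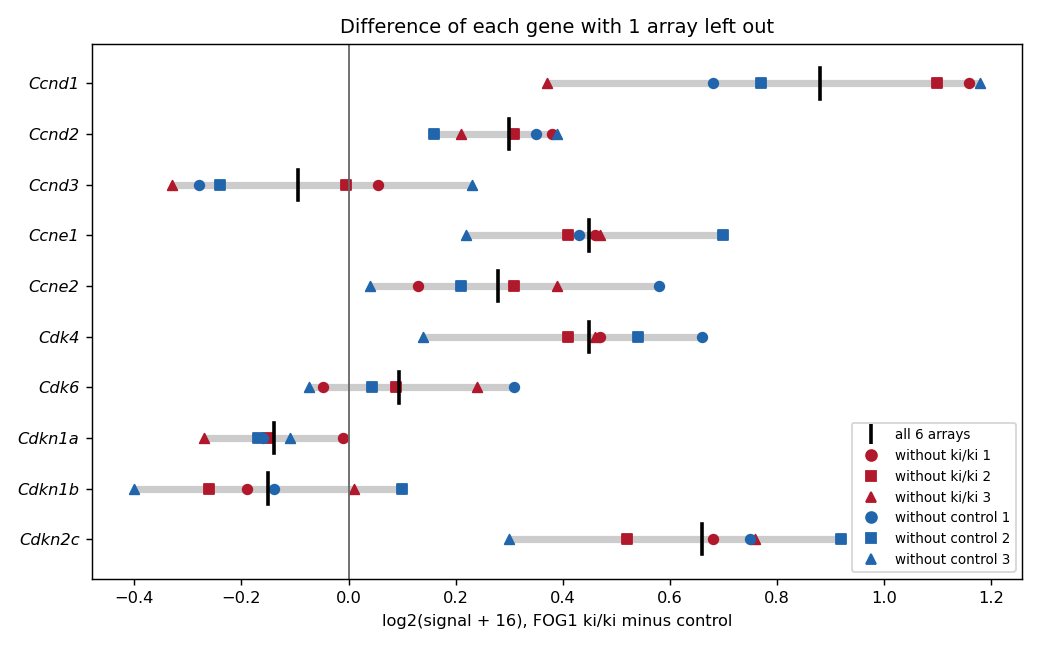
Difference in log2(signal + 16), FOG1 ki/ki minus control, of each gene's brightest probe set with all 6 arrays (black) and with each array left out in turn (red: FOG1 ki/ki, blue: control; shape gives the replicate number). Ccnd1 spans 0.37 to 1.18 and stays right of 0, while Ccnd3, Cdk6 and Cdkn1b cross 0.

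Across the 6 arrays some members followed each other, as a description only, since the arrays of a pair share their replicate number. Cdkn2c correlated with Ccne1 at r = 0.954 and with Cdk4 at 0.908, and Ccne2 with Cdk6 at 0.957. Ccnd3 ran opposite to Cdk6, at -0.840. The closest genes to Ccnd1 among all tested were Scnm1 (r = 0.995), 1110038F14Rik (0.992) and Esr1 (0.992). The closest to Ccnd2 were Arap2 (0.995), Top2b (0.991) and Gphn (0.988), and to Cdkn2c Pdap1 (0.995), Ncapd2 (0.993) and Ptch1 (0.992). With 6 arrays such values are common: 91 genes correlated with Ccnd1 at over 0.95, 14 with Ccnd2 and 84 with Cdkn2c.

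The other genes of the G1 to S step also lay above control more often than below, with none past the test. Of 36 listed, 33 were tested, 23 lay above control and 10 below, with a median of 0.19. That is 69.7% above control, where 55.1% of all genes were. By limma 0 passed without or with the block, and 1 or 7 of the 33 had an unadjusted p under 0.05, where 6.69% and 18.4% of all genes did. Without control replicate 3 there were 19 above and 14 below, with a median of 0.092, while dropping FOG1 ki/ki replicate 1 gave a median of 0.12 and dropping FOG1 ki/ki replicate 3 gave 0.093. Myc, a driver of growth and of G1 genes, read 289.7, 341 and 241 in FOG1 ki/ki and 162, 259 and 104 in control, higher in all 3 pairs (log2 difference 0.75, limma adjusted p = 0.803). Cdc25a, the phosphatase that activates CDK2, read 219.5, 243 and 289 in FOG1 ki/ki and 184, 180.2 and 108 in control. Its groups separated (log2 difference 0.65, limma adjusted p = 0.769). E2f2, an E2F factor, differed by 0.63, with overlapping groups. Mdm2, which holds p53 in check and is itself a p53 target, read 1140.3, 1116 and 1215 in FOG1 ki/ki and 1344, 1702 and 1527 in control, and its groups separated downward (log2 difference -0.39, limma adjusted p = 0.593). Of the 33 genes, 2 separated upward, Cdc25a and E2f1, where 6.32% of all genes did. Downward separation was seen in 1 of the 33, Mdm2, against 4.93% of all genes. E2f1 was named after its values were seen.

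E2F target genes of S phase entry lay above control in 21 of 22 cases, with a median of 0.25. By limma 0 passed in either fit, and 0 without or 5 of 22 with the block had an unadjusted p under 0.05, against the same 6.69% and 18.4% of all genes. Without control replicate 3, 14 of 22 lay above control with a median of 0.064, while dropping FOG1 ki/ki replicate 3 gave a median of 0.41 and dropping control replicate 1 gave 0.43. List medians were 0.067, 0.26 and 0.56 in pairs 1, 2 and 3. Ung, a uracil glycosylase, read 384, 467 and 271 in FOG1 ki/ki and 353, 291 and 119 in control (log2 difference 0.62). The replication helicase subunits Mcm3 and Mcm7 differed by 0.43 and 0.33, and the methylation maintenance factor Uhrf1 by 0.32. The summed signal of this list was 16769.7 to 20199 in FOG1 ki/ki and 11721 to 18753 in control, lowest in control replicate 3.

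Genes known as p53 targets leaned the other way. Of 20 tested, 16 lay below control and 4 above, with a median of -0.22, and the medians were -0.45, -0.087 and -0.14 in pairs 1, 2 and 3. In 6 of the 20 every FOG1 ki/ki array lay below every control array, where 4.93% of all genes did. Dropping FOG1 ki/ki replicate 3 gave a median of -0.44, and between 13 and 19 of the 20 lay below control with any 1 array left out. At an unadjusted limma p under 0.05 there were 4 of 20 without the block and 9 of 20 with it, against 6.69% and 18.4% of all genes. At the adjusted threshold 0 passed without the block, and with it 1 fell, against 0.417% of all genes, the death receptor gene Fas. Fas read 71.3, 73.5 and 73.1 in FOG1 ki/ki and 216, 299.8 and 288 in control, with tight values in FOG1 ki/ki (log2 difference -1.67, limma adjusted p = 0.0912, and 0.0295 with the block).

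Eda2r, a receptor of the tumour necrosis factor receptor family, read 223, 249 and 254 in FOG1 ki/ki and 566, 344 and 445 in control (log2 difference -0.83, limma adjusted p = 0.432). With Fas, Eda2r and Mdm2, the other genes whose groups separated downward were Plk2 (-0.50), Sesn1 (-0.17) and Gtse1 (-0.46), named after their values were seen. Perp, a p53 target of cell junctions, went against the list, with 484, 821 and 1719 in FOG1 ki/ki and 497, 207 and 522 in control (log2 difference 1.19, limma adjusted p = 0.731).

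**Figure D4:**
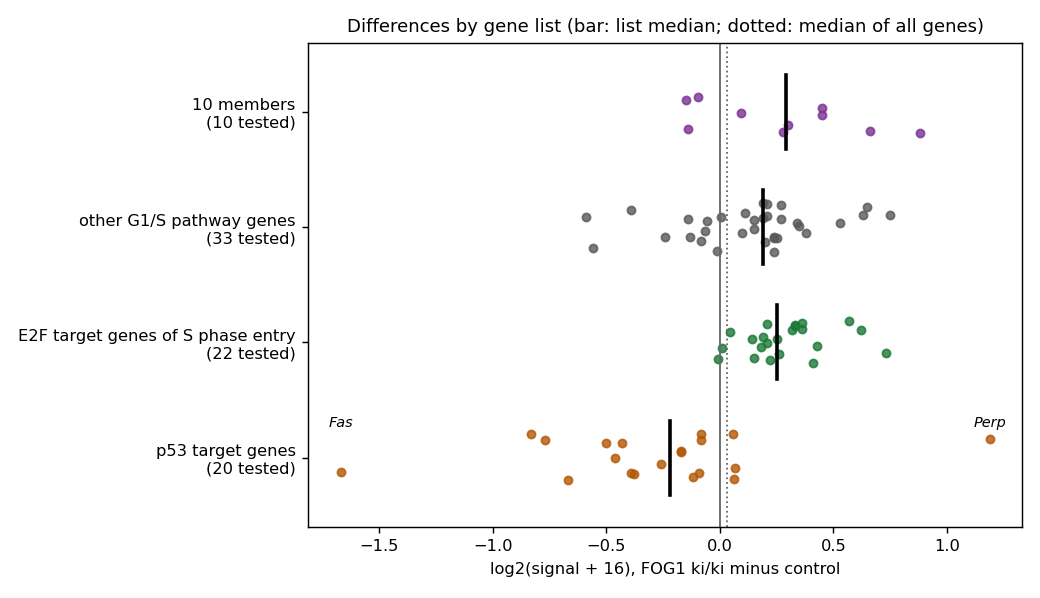
Difference in log2(signal + 16), FOG1 ki/ki minus control, of every tested gene in 4 lists (vertical scatter has no meaning); black bars are list medians and the dotted line is the median of all genes tested, 0.033. The list medians are 0.29 for the 10 genes, 0.19 for other pathway genes, 0.25 for E2F targets and -0.22 for p53 targets.

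Markers of dividing cells and of other cell types also moved between arrays. Mitosis markers lay above control in 10 of 11 cases (median 0.30), and their summed signal was 9610.0, 9629 and 8087 in FOG1 ki/ki replicates 1 to 3, against 8705, 8214 and 5276 in control replicates 1 to 3. The lowest sum was on control replicate 3, the array with the lowest Ccne1, Ccne2, Cdk4, Cdk6, Cdkn1b and Cdkn2c of the controls. Without that array 7 of 11 mitosis markers lay above control, with a median of 0.068. Mast cell and basophil markers lay above control in 10 of 10 tested, with sums of 6579 to 6832 in FOG1 ki/ki and 283 to 3404 in control, while Mcpt4 and Tpsb2 did not pass the filter. Macrophage markers lay below control in 14 of 14, with sums of 5554 to 14926 in FOG1 ki/ki and 11103 to 19732 in control. Fibroblast markers lay below in 10 of 11, with sums of 259 to 3859.5 in FOG1 ki/ki and 416 to 8203 in control. The lowest fibroblast sums were on the replicate 3 arrays, 259 in FOG1 ki/ki and 416 in control, where Ccnd1 read highest. Erythroid markers had 2 of 8 tested, 1 below control and 1 above, with sums of 903 to 1310.0 in FOG1 ki/ki and 1367 to 2027 in control. Hbb-b2, a globin gene, carried the sums (log2 difference -0.63). It was lower on every FOG1 ki/ki array, 1126 at the highest, than on every control array, 1303 at the lowest. Klf1, an erythroid transcription factor gene, was higher on every FOG1 ki/ki array (78.7 or more) than on every control array (43.7 or less). Its log2 difference was 1.86 (limma adjusted p = 0.302). Of all genes, 4.93% separated downward and 6.32% upward. Hbb-b2 and Klf1 were named after their values were seen. The part of these differences in the values above was not tested.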

How the data were processed

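The intensities deposited by the authors were linear values, 1 for each probe set; per the submitters' processing notes the tool was MAS5, version not given. Each array's 2% trimmed mean was 150.0, so arrays share one scale, and a change in total RNA per cell cannot be seen. RNA was amplified with NuGEN kits, per the labels' protocols. Genes were named from the platform annotation, and the Entrez identifiers of all 10 genes matched RefSeq (GRCm38.p6).

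Intensities were taken as log2(signal + 16), which understates changes of dim genes. Of 45101 probe sets, 64 controls and the lower 50% by mean log2 value (signal of about 10.3) were left out, and the brightest remaining probe set that names 1 gene alone stood for that gene. The difference between FOG1 ki/ki and control was fitted in limma 3.58.1 under R 4.3.3 (eBayes with a trend, Benjamini-Hochberg over all features, threshold 0.05), over 11260 genes and over all 45037 probe sets unfiltered. The fit without the block was tested on simulated data with independent noise on each array, unlike the same-numbered arrays here. The fit with the block was not tested in this way. Python 3.11.15 with pandas 2.3.3 and matplotlib 3.10.9 did the rest. The number of arrays limits the precision, and the labels do not say whether cultures shared a litter.

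Deviations from group means of same-numbered arrays correlated at 0.482, 0.689 and 0.674 over genes tested, and those of differently numbered arrays at 0.0767 or lower, a contrast partly built in because deviations sum to 0 within a group. Replicate numbers were therefore read as pairs, and the block was run as an alternative, beside other pseudocounts, scalings, filters and left-out arrays. The 10 genes, the gene and marker lists and the tests were chosen with earlier results of these data known. Named were all 10 genes, Zfpm1, 4 genes per list by smallest unadjusted p, any that passed, and the 3 genes closest to each of the 3 members with the smallest unadjusted p.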

Additional observations from a re-analysis of the deposited data

How the results depend on the processing

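No member gene passed under any setting tried, the block included, and the smallest limma adjusted p of any member was 0.0691, for Ccnd1 with the replicate block. The median difference of the 10 genes was 0.29 and stayed between 0.26 and 0.31 under other pseudocounts, scalings and filters, and between 0.16 and 0.43 with 1 array or 1 pair left out. The replicate block and the filter settings repeat each tested member's estimate by design, so those values could not change direction. With them counted, 163 of 169 values of single members under other settings kept their direction. The exceptions were Ccnd3 without FOG1 ki/ki replicate 1 (0.055) or control replicate 3 (0.23), Cdk6 without the same arrays (-0.047 and -0.074), and Cdkn1b without FOG1 ki/ki replicate 3 (0.0097) or control replicate 2 (0.10). With 1 array left out, Ccnd3 ranged from -0.33 to 0.23, Cdk6 from -0.074 to 0.31 and Cdkn1b from -0.40 to 0.10. The count of all genes past the test was 17, and it was 8 with a pseudocount of 1, 1 with no filter on dim probe sets (18193 genes tested), 3 with the lower 75% left out, 94 with the replicate block, and 0 to 2 with arrays left out. The cause was not tested. Member probe sets past the test and other G1/S genes past it were 0 under each setting tried for them. Among the genes of the 3 gene lists the block changed the call of Fas and of no other. Leaving out single arrays for the list counts was chosen after seeing the data. The 2 dimmer Ccnd3 probe sets and the dimmest of Cdk6 are limited by signal near background.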
